A study of Mus musculus with 4 samples.

Results

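The forkhead transcription factor genes Foxa2, Foxl2, Foxf1, Foxf2, Foxc1, Foxc2, Foxp1, Foxp2 and Foxo1, were followed across the cell classes of the newborn mouse oviduct and uterus. They were chosen by symbol, and all 9 were found among the 31053 genes of the count tables. The series profiled single cells of 2 oviduct and 2 uterus libraries from wild type, untreated CD1 neonates at postnatal day 3, each library a pool of organs from 3 or 4 neonates. Collagenase B, DNase I and Dispase II were used to free the cells, which were captured with the Chromium Single Cell 3-prime v3.1 chemistry, which counts each transcript molecule once by a unique molecular identifier (UMI) near its 3-prime end. No group carried an allele or agent that the other lacked, so the comparison is one of organ and of cell class.

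Forkhead proteins share a winged-helix DNA-binding domain and differ in the partners and tissues in which they act. Foxa2 can open closed chromatin and is known in the uterus as a factor of gland epithelium, which forms after birth. Foxl2 is best known from ovarian granulosa cells and is also present in uterine stroma. Foxf1 and Foxf2 are hedgehog-responsive factors of the mesenchyme around gut and lung, and Foxf1 is also needed in vessels. Foxc1 and Foxc2 act in vessels, lymphatics and mural cells, Foxp1 and Foxp2 are repressors that can pair with each other, and Foxo1 is held out of the nucleus by insulin and Akt signalling.

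On the GRCm38 assembly with GENCODE M21 models, Foxa2 lies on the minus strand of chromosome 2 (148042877 to 148046969). Foxl2 is a single-exon gene on the plus strand of chromosome 9 (98955288 to 98958543), and its first 12 bases overlap the antisense gene Foxl2os, which was not analysed here. Foxf1 (chromosome 8, 121084386 to 121088144) and the single-exon Foxc2 (121116171 to 121118895) are neighbours 28026 bases apart, and Foxf2 (chromosome 13, 31625816 to 31631403) and Foxc1 (31806633 to 31812476) lie 175229 bases apart. Foxp1 and Foxp2 are long genes of chromosome 6 that span 597384 and 540629 bases, and Foxo1 spans 84886 bases of chromosome 3. RefSeq promoter windows (GRCm38.p6) were matched for 6 of the 9 genes: Foxa2, Foxl2, Foxf2, Foxc1, Foxp1 and Foxo1. Foxf1, Foxc2 and Foxp2 were not matched.

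The bases just before the annotated start are shown for Foxa2, read above trace levels only in oviduct epithelium, and for Foxo1, read in every class. Capitals mark TGTTTGT, a forkhead core, or the GC box GGGCGG, which reads CCGCCC on the opposite strand. The forkhead core TGTTTAC and the TATA motif TATAAA were also searched, each on both strands, and no match in the printed windows overlapped another. The Foxa2 sequence is chr2:148046970-148047219 read on the minus strand, and the Foxo1 sequence is chr3:52268087-52268335 on the plus strand.
Foxa2: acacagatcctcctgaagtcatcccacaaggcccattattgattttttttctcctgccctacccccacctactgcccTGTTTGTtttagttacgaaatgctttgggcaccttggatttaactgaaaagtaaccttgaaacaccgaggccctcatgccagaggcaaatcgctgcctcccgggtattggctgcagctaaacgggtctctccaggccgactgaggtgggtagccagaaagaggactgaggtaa
Foxo1: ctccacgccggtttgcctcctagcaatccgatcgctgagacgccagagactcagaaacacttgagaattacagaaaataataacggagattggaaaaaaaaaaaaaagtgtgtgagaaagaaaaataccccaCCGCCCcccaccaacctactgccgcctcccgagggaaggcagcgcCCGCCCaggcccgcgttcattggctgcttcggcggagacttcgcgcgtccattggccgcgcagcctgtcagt
The printed Foxa2 window, 1 of 3 in RefSeq, held 1 TGTTTGT, 50.8% G and C and 6 CpG pairs. The other 2 lie inside the gene and held no TGTTTGT, 2 and 1 GC boxes, 0 and 1 TATAAA, 67.2% and 54.4% G and C and 20 and 13 CpG pairs. The Foxo1 window held 2 GC boxes, 56% G and C and 20 CpG pairs. Among 32851 RefSeq promoter windows of 250 bases, 5.84% held TGTTTGT, 3.17% TGTTTAC, 32.7% GGGCGG and 12.4% TATAAA, with a median of 52.4% G and C and 6 CpG pairs. These matches describe letters only, and the RefSeq windows of Foxl2, Foxf2 and Foxc1 held 2, 2 and 1 GC boxes and the 3 of Foxp1 held 1, 0 and 3. The Foxp1 window with 0 GC boxes held 1 TGTTTGT.

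The 4 libraries held 5716 to 7808 called barcodes and 61117726 to 114419939 UMIs, with medians of 9608 to 11890.5 UMIs per barcode, and any pair shared 8 to 15 barcodes. After cell filters, 3872 to 6488 cells per library were kept. Cells were assigned one by one to classes by markers that include none of the 9 genes, which gave 28 to 156 epithelium-like, 1270 to 2425 mesenchyme-like, 359 to 676 smooth muscle-like, 56 to 441 mesothelium-like, 98 to 141 pericyte-like, 123 to 157 blood endothelium-like and 36 to 83 myeloid-like cells per library. Cells between mesenchyme and muscle, 1318 to 2013 per library, were kept apart as intermediate cells. All 7 epithelial markers were detected in the epithelium of every library. Mesenchyme-like cells carried a median of 5 of 6 mesenchyme markers in each library, at 81.2 and 84.4 marker UMIs per 10000 in oviduct libraries and 20.8 and 20.2 in uterine ones. Levels below are UMIs per 1000000 in the summed counts of a class (CPM) in each library, given for replicate 1 and then replicate 2.

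The forkhead genes fell into a few patterns among the classes. Foxa2 was an epithelial gene of the oviduct, Foxl2 a gene of mesenchyme and muscle, Foxf1 of blood endothelium, Foxc1 and Foxf2 of pericytes, and Foxp2 of oviduct muscle. Foxp1 and Foxo1 were read in every class, Foxp1 highest in blood endothelium and Foxo1 in blood endothelium and mesothelium, whose oviduct libraries overlapped. Because a UMI counts molecules by 3-prime tags, levels are compared between classes for 1 gene and not between genes.

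**Figure D1:**
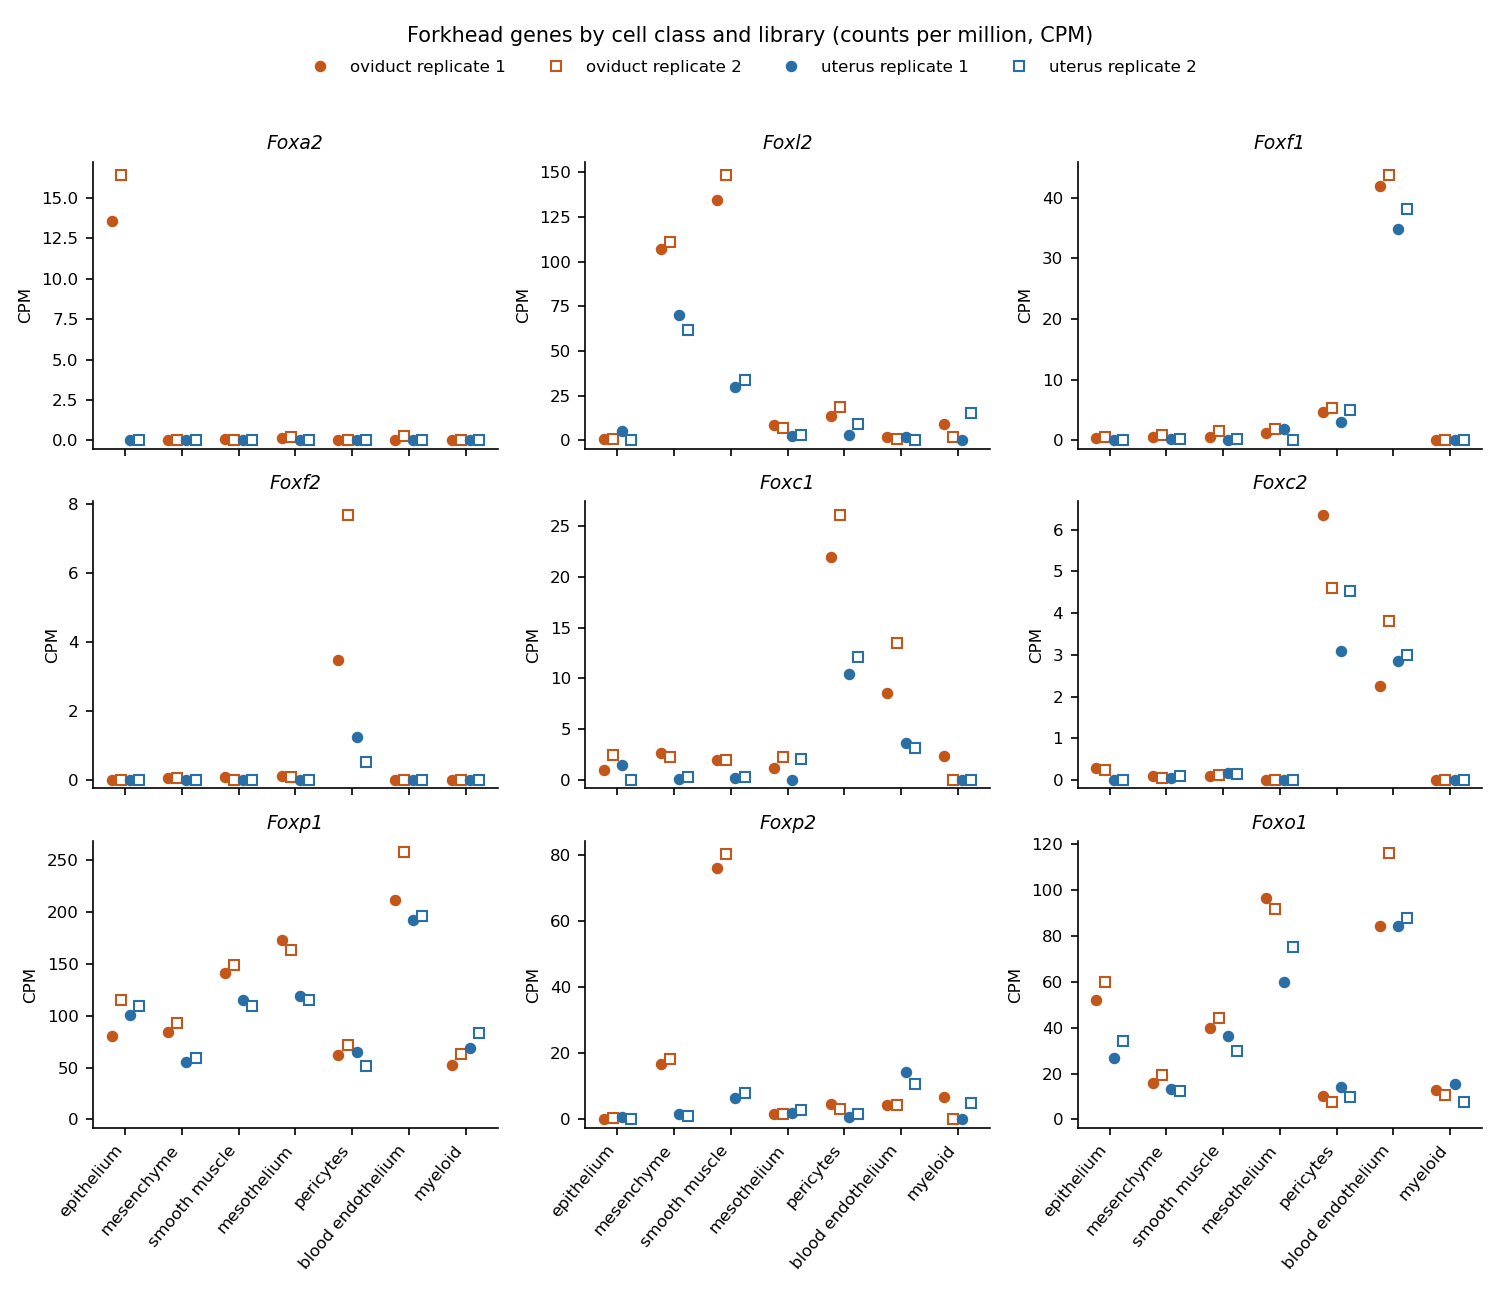
Levels of the 9 genes (y axis, CPM, 1 scale per gene) in 7 cell classes (x axis), with 1 point per library, oviduct in orange and uterus in blue. Foxa2 is above 13 CPM in both oviduct epithelia and at 0 in the uterus, Foxf1 points above 30 CPM are all endothelial, and the oviduct muscle points of Foxp2 stand at 76.1 and 80.2 CPM.

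Foxa2 was read in the oviduct epithelium at 13.6 and 16.4 CPM (96 and 135 UMIs) and in the uterine epithelium at 0 and 0. No uterine barcode called as a cell, of any class, held a Foxa2 UMI. The organs therefore did not overlap. Summed over the libraries, 3 UMIs in the uterine epithelium would have been 0.902 CPM, and against that floor over the group the oviduct level of 15.1 CPM was at least 16.7-fold higher. No p is given, since Foxa2 passed the filter on low counts through the oviduct alone.

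In single cells, 34 of 98 and 39 of 156 oviduct epithelial cells held a Foxa2 UMI (34.7% and 25%), at median depths of 32065.5 and 28296.5 UMIs. At an equal 5000 UMIs per cell the expected shares were 6.62% and 5.62%, over 91 and 145 cells deep enough. In the uterine epithelium 0 of 31 and 0 of 28 cells held one, which allows shares of cells with a captured UMI, not of cells expressing the gene, of up to 9.68% and 10.7% (counting error only) at median depths of 23297 and 50121.5 UMIs. Of those uterine cells 26 and 23 had at least 5000 UMIs. Mesenchyme, where the gene should be lacking, gave 0.0412% and 0.0559% of oviduct cells. Oviduct epithelial cells with few ciliary markers also held the gene. Cells with 3 or more of 5 multiciliated markers (17 and 15 cells) stood at 15.7 and 33.9 CPM and the other epithelial cells (81 and 141) at 12 and 11.9 CPM, a division chosen after the levels were seen and given without a test. The first set was deeper, with 2988913 and 1681039 UMIs in its few cells against 4088892 and 6547612 in the others.

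Foxo1 was the other forkhead gene of the list that differed between the epithelia. It stood at 52.1 and 59.9 CPM in the oviduct and at 26.5 and 34 CPM in the uterus, with no overlap, a log2 difference of 1.00 ± 0.21 (SE) and an adjusted p of 0.00447 (edgeR quasi-likelihood test, Benjamini-Hochberg adjustment over all genes tested, used for every adjusted p below unless another tool is named). For organ differences the p-values measure the spread between these pooled libraries. In class contrasts and interactions the library is a term, so they measure how the class difference varies between libraries. In both, the spread of a gene is estimated partly from the other genes tested, so very small p-values do not rest on these few libraries alone. Clustering placed the epithelia of the organs mostly apart, in a cluster of 83 and 156 oviduct and 0 uterine cells (median 29263 UMIs) and one of 8 and 1 oviduct and 23 and 22 uterine cells (median 64786 UMIs). A further 45 cells gated as epithelium fell in a shallow cluster of 561 cells (median 1801 UMIs), of which 14.1% had a class. The part of this in the Foxo1 value was not tested. Foxp1 overlapped, at 80.7 and 115 CPM against 100 and 109 CPM (0.04 ± 0.20, adjusted p = 0.92). Of the 9 genes 3 passed the filter on low counts in epithelium and 2 were called, Foxa2 having passed through the oviduct alone, where 20.7% of 12068 genes were called, 13.1% higher and 7.63% lower in the oviduct. The remaining genes had 0 to 20 UMIs in any epithelial library.

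Genes named with the glands and with Foxa factors were compared in the same epithelia. Of 10 such genes 5 were tested and 2 were called, both higher in the oviduct, with a median log2 difference of -0.22 against 0.01 over all genes, of which 20.7% were called, 13.1% higher and 7.63% lower in oviduct. Both passed the filter through the oviduct. Ltf, which encodes the secreted protein lactotransferrin, stood at 51.9 and 35.9 CPM in the oviduct and 0 and 0.508 CPM in the uterus. Lif, a cytokine of uterine glands in the adult, stood at 3.11 and 6.08 against 1.47 and 0.508 CPM.

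Among 35 other forkhead genes, 13 were tested in epithelium, where 4 were called with more in oviduct and 2 with more in uterus (median 0.31), beside 13.1% and 7.63% of all genes. Foxq1 was read at 28.3 and 17.3 CPM in the oviduct and at 0 in both uterine libraries. Foxj1, the ciliogenesis factor, stood at 59.3 and 58.7 against 8.11 and 6.1 CPM (3.22 ± 0.26, adjusted p = 3.11e-06). Foxm1, a factor of dividing cells, was lower in the oviduct at 8.19 and 5.83 against 21.4 and 17.3 CPM (-1.31 ± 0.29, adjusted p = 0.00615), as was Foxn3 at 28.7 and 31 against 70 and 65 CPM (-1.04 ± 0.18, adjusted p = 0.00138).

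Insulin and Foxo pathway genes moved in both directions beside Foxo1. Of 17 genes 16 were tested in epithelium and 5 called, 3 of them higher and 2 lower in oviduct (median 0.17), beside 20.7% of all genes called, 13.1% and 7.63% in those directions. Gadd45a, a stress gene known as a Foxo target, stood at 105 and 113 against 42 and 25.9 CPM (1.86 ± 0.22, adjusted p = 7.26e-05), and Sesn1, another such target, at 20.9 and 21.4 against 11.1 and 4.06 CPM (1.72 ± 0.34, adjusted p = 0.00319). Irs1, an adaptor of the insulin receptor, was lower in the oviduct at 7.77 and 5.83 against 76.6 and 80.3 CPM (-3.40 ± 0.22, adjusted p = 7.45e-07). Sesn3 was lower there too (-0.59 ± 0.19, adjusted p = 0.0392).

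Foxl2 was nearly absent from epithelium and abundant in the stroma beneath it. Mesenchyme held 107 and 111 CPM in the oviduct and 69.9 and 61.4 CPM in the uterus, against 0.565 and 0.729 CPM in oviduct and 5.16 and 0 CPM in uterine epithelium. The 7 UMIs of the first uterine epithelium came from 2 cells, and that library also had the most muscle marker signal in its epithelium, 162 CPM against 29 to 45.5 CPM in the other 3, whose part in the value was not tested. The fitted epithelium minus mesenchyme difference was -7.34 in the oviduct and -5.20 in the uterus, given with no p, since Foxl2 passed the filter through mesenchyme, with only uterus replicate 1 over the minimum among the epithelia. Without uterus replicate 1 the uterine value, then fitted against 0 UMIs, was -12.87 and without replicate 2 it was -4.05. Free RNA, bounded from haemoglobin UMIs, could supply at most 18.2% and 22.7% of the few oviduct epithelial Foxl2 UMIs and under 1% of those in mesenchyme.

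The same contrast placed the other genes on either side. In the oviduct 6 genes were tested, with 2 higher in epithelium (Foxa2, Foxo1) and 2 higher in mesenchyme (Foxl2, Foxp2), where 66.3% of 15145 genes were called, 32.8% and 33.5% in those directions. Foxa2 passed the filter there through epithelium alone, and its call was lost with DESeq2 (adjusted p = 0.0721). Foxp2, with 2 and 3 UMIs in oviduct epithelium, passed it as Foxl2 did. In the uterus 5 were tested, with 2 higher in epithelium (Foxo1, Foxp1) and 1 in mesenchyme (Foxl2), where 47.9% of the genes were called, 20.8% and 27.1% in those directions. The median over all genes was -0.14 in the uterine contrast, so values there are read against that shift. Foxo1 was higher in epithelium by 1.69 ± 0.12 in the oviduct (adjusted p = 7.66e-13) and by 1.01 ± 0.19 in the uterus (adjusted p = 7.16e-05, and 0.055 without uterus replicate 2). Foxp1 was higher by 0.61 ± 0.13 in the uterus (adjusted p = 0.000301) and by 0.15 ± 0.11 in the oviduct (adjusted p = 0.231).

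**Figure D2:**
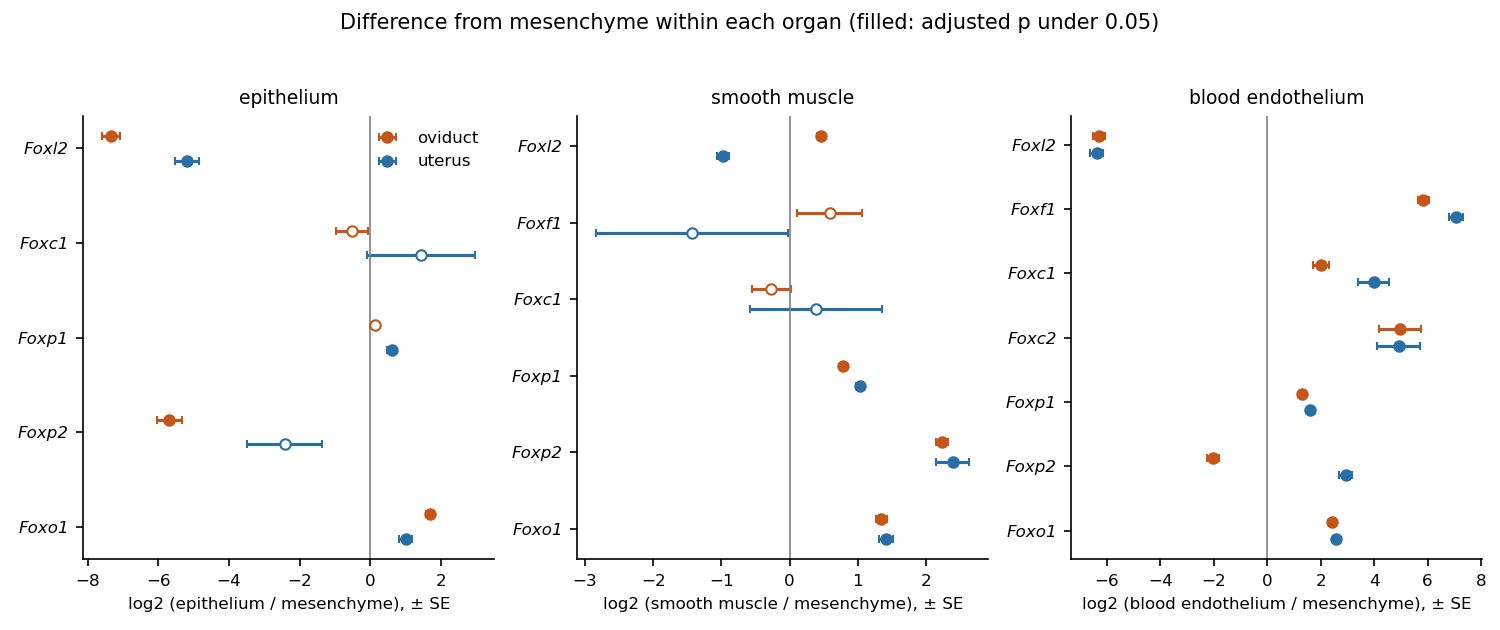
Log2 difference of epithelium, smooth muscle and blood endothelium from mesenchyme (x axis, ± SE) for each tested gene except Foxa2, in oviduct (orange) and uterus (blue), filled where the adjusted p was under 0.05. The muscle and endothelium contrasts were added after the levels were seen. Of the genes filled in both organs, Foxl2 in muscle and Foxp2 in endothelium lie on opposite sides of 0, and the fills of Foxl2 and Foxp2 in epithelium and of Foxf1, Foxc2 and uterine Foxc1 in endothelium are for genes kept by the filter mainly or only through the higher class.

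In mesenchyme the oviduct had the higher level of each tested gene. Foxp2 stood at 16.9 and 18.3 CPM in the oviduct against 1.78 and 1.10 CPM in the uterus, with no overlap (3.54 ± 0.17, adjusted p = 1.04e-09). Foxl2 differed by 0.67 ± 0.08 (adjusted p = 1.56e-05), with both oviduct libraries above both uterine ones. Foxp1 stood at 84.6 and 93.2 against 54.9 and 59 CPM (0.58 ± 0.09, adjusted p = 8.64e-05), also without overlap. Foxo1 stood at 16.1 and 19.2 against 13.4 and 12.2 CPM (0.39 ± 0.11, adjusted p = 0.0103, and 0.0988 without oviduct replicate 2 or 0.0613 with DESeq2).

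The remaining tested genes were scarce in mesenchyme. Foxc1 was read at 2.68 and 2.29 CPM (85 and 45 UMIs) in the oviduct and at 0.105 and 0.251 CPM (2 and 5 UMIs) in the uterus. Foxf1 was read at 0.63 and 0.814 against 0.262 and 0.201 CPM. No p is given for either, since both passed the filter through the oviduct alone, and the Foxf1 call was lost without oviduct replicate 2, without either uterine replicate and with DESeq2. Blood endothelial markers, all 7 detected, were also higher in oviduct mesenchyme (45.9 and 51.7 CPM) than in uterine mesenchyme (16.8 and 17.5 CPM). Among these markers Kdr was also a leading gene of an oviduct mesenchyme cluster. There Foxf1 stood at 0.241 and 0.168 CPM and Foxc1 at 2.41 and 2.53 CPM, while over 6 oviduct clusters their means reached 1.43 and 5.44 CPM. The part of the endothelial markers in the Foxf1 and Foxc1 values was not tested. Of the 6 tested genes 6 were called higher in the oviduct, Foxf1 and Foxc1 among them, where 48.2% of 14371 genes were called, 25.6% higher and 22.6% lower in the oviduct.

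Other regulators of the stroma moved in both directions in mesenchyme, where 48.2% of all genes were called, 25.6% higher and 22.6% lower in oviduct. Of 10 genes listed as stromal partners 8 were tested and 6 called, 2 higher and 4 lower in oviduct (median -0.22 against 0.00 over all genes). Nr2f1, a nuclear receptor, stood at 103 and 102 against 7.56 and 11.1 CPM (3.40 ± 0.14, adjusted p = 1.43e-10), and Hand2, a stromal factor of the progesterone response, at 93.3 and 94.7 against 282 and 263 CPM (-1.60 ± 0.08, adjusted p = 1.27e-09). Of 11 hedgehog and BMP genes around Foxf factors 7 were tested and 4 called, 3 higher and 1 lower in oviduct (median 0.50), with Ptch1, a hedgehog receptor and response gene, at 11.2 and 12.1 against 5.88 and 6.27 CPM (0.87 ± 0.12, adjusted p = 6.29e-05) and Gli2 at 12.8 and 13.6 against 19 and 19 CPM (-0.58 ± 0.10, adjusted p = 0.00027). Of 17 insulin and Foxo genes, all tested, 11 were called, 10 higher and 1 lower in oviduct (median 0.38), led by Bcl6 (2.12 ± 0.24, adjusted p = 7.69e-06) and Irs2 (1.46 ± 0.15, adjusted p = 1.8e-06). Of 13 other forkhead genes tested, Foxo6 and Foxo3 rose and Foxo4 fell from uterus to oviduct, each by less than 1 on the log2 scale.

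**Figure D3:**
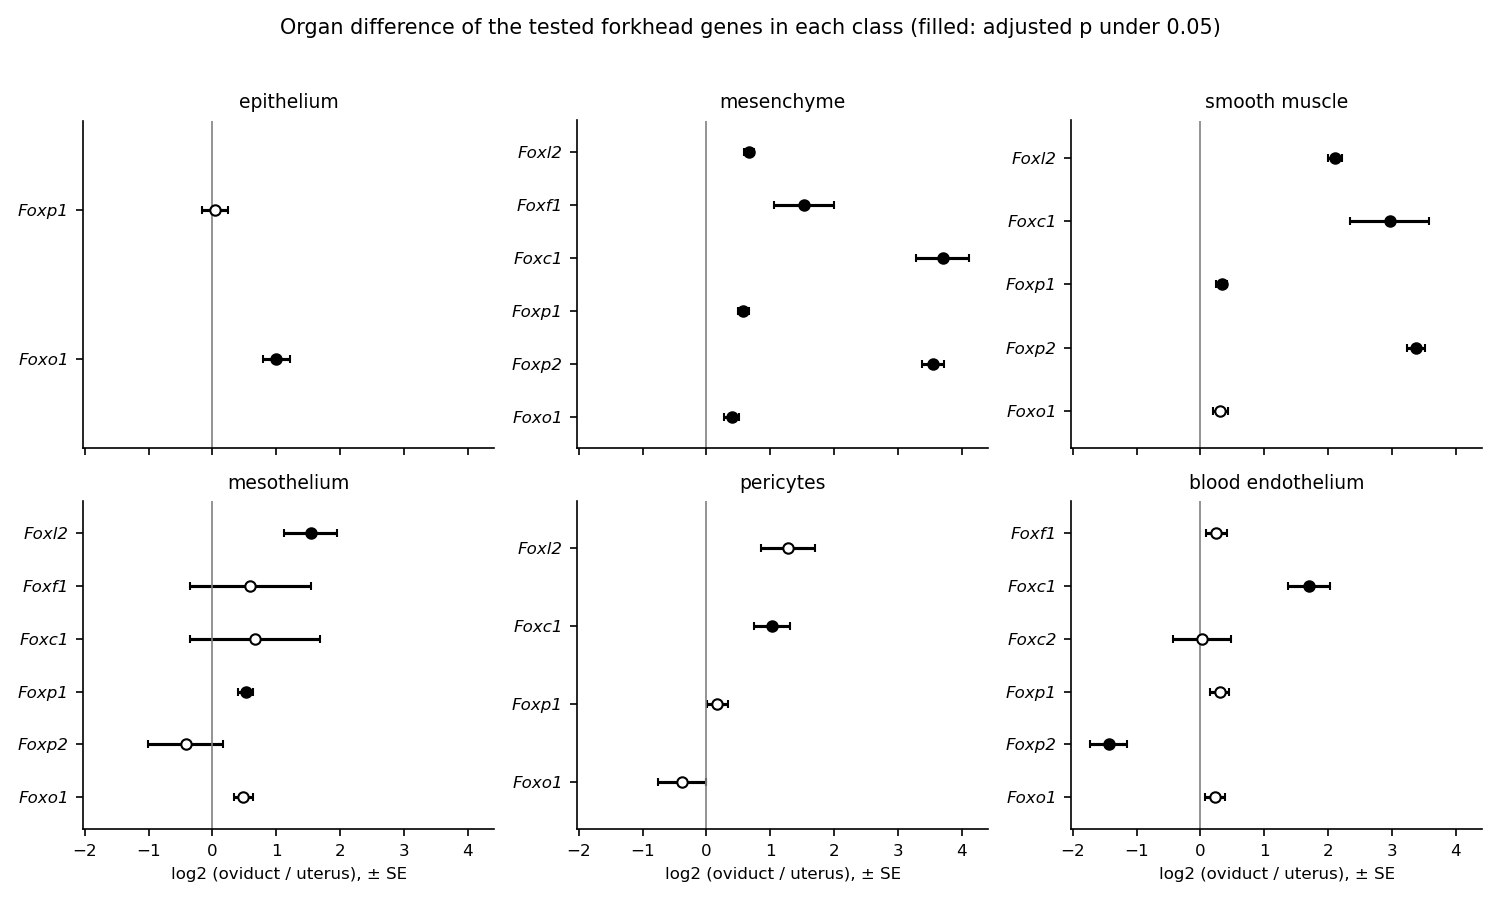
Log2 ratio of oviduct to uterus (x axis, ± SE) of each tested gene in 6 classes, Foxa2 left out because its uterine counts were 0, filled where the adjusted p was under 0.05. Foxp2 lies at 3.54 in mesenchyme and 3.38 in smooth muscle and at -1.44 in blood endothelium, and the fills of Foxf1 and Foxc1 in mesenchyme and of Foxc1 in muscle are for genes kept by the filter through the oviduct alone.

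Smooth muscle separated the organs more than mesenchyme did for Foxl2. Oviduct muscle held 134 and 148 CPM and uterine muscle 30 and 33.9 CPM, with no overlap (2.11 ± 0.11, adjusted p = 6.07e-10). The contrasts of muscle and endothelium with mesenchyme, and their interactions, here and below, were added after the levels were seen. Their p-values are not those of planned tests. Foxl2 in muscle was above mesenchyme in the oviduct by 0.45 ± 0.06 (adjusted p = 3.36e-06) and below it in the uterus, with a difference of -0.98 ± 0.08 (adjusted p = 2.3e-08). The difference of these differences was 1.43 ± 0.10 (adjusted p = 6.24e-09), in a comparison where 19.9% of 14429 genes were called, 8.73% positive like Foxl2 and 11.2% negative like Foxp1. Its size depended on how cells were assigned: with clusters in place of the gate the uterine contrast was -0.26 and the interaction 0.64 (adjusted p = 1.23e-05), and with a stricter gate the uterine contrast was -1.57. The contrasts are against mesenchyme summed over uneven clusters. Oviduct mesenchyme cluster means ran from 18.1 to 183 CPM, with the muscle cluster inside that range at 147 CPM. Uterine ones ran from 21.1 to 78.3 CPM, with the muscle cluster at 45.5 CPM. The part of the mix of clusters in the contrasts was not tested. In the uterus 104 of 359 and 134 of 372 muscle cells held a Foxl2 UMI (29% and 36%) against 705 of 1313 and 649 of 1270 mesenchyme cells (53.7% and 51.1%). At 5000 UMIs per cell the shares were 12.2% and 14.2% in uterine muscle, 27.6% and 24.6% in uterine mesenchyme, and 44.3% and 49.3% in oviduct muscle (74.1% and 79.9% unthinned). Blood endothelium, where the gene should be lacking, gave 0.0362% to 1.04% at that depth.

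Foxp2 was higher in muscle than in mesenchyme in both organs, while in the uterus its highest level was in blood endothelium. It stood at 76.1 and 80.2 CPM in oviduct muscle and at 6.6 and 7.92 CPM in uterine muscle, with no overlap (3.38 ± 0.14, adjusted p = 5.45e-11). Muscle exceeded mesenchyme by 2.24 ± 0.08 in the oviduct (adjusted p = 8.47e-14) and by 2.39 ± 0.24 in the uterus (adjusted p = 2.24e-07), and the test of a difference between these gave -0.16 ± 0.25 (adjusted p = 0.735). With clusters in place of the gate the oviduct contrast was 1.62. In oviduct muscle 308 of 676 and 280 of 578 cells held UMIs of both Foxl2 and Foxp2, and 107 and 75 held neither.

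Foxp1 and Foxo1 also rose from mesenchyme to muscle in each organ. Foxp1 stood at 141 and 149 CPM in oviduct muscle and 115 and 109 CPM in uterine muscle (0.33 ± 0.09, adjusted p = 0.00903), a call lost with a stricter gate (0.17, adjusted p = 0.291) and without oviduct replicate 2 (adjusted p = 0.0932). Foxo1 stood at 39.9 and 44.3 against 36.3 and 29.9 CPM, which do not overlap (0.31 ± 0.12, adjusted p = 0.0711, and 0.0204 without uterus replicate 1). Foxc1 had 22 and 18 UMIs in oviduct muscle and 1 and 2 in uterine muscle and passed the filter through the oviduct alone, with a ratio of summed levels of 8.45 with a counting interval of 2.69 to 42.7 (95%, exact). Of 5 genes tested in muscle 4, Foxc1 among them, were higher in the oviduct, where 26.7% of 12678 genes were called, 14.7% higher and 12% lower in the oviduct. Against mesenchyme, 4 of 6 tested genes were higher in oviduct muscle, where 36.5% of genes were called, 19.3% higher and 17.2% lower. In uterine muscle 3 were higher and 1 lower, where 26.5% of genes were called, 15.5% and 11% in those directions. Foxp1 rose by 0.79 ± 0.05 in the oviduct (adjusted p = 3.87e-10) and 1.03 ± 0.06 in the uterus (adjusted p = 7.92e-11), and Foxo1 by 1.34 ± 0.08 (adjusted p = 1.51e-10) and 1.42 ± 0.10 (adjusted p = 1.83e-09).

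Cells between the classes had levels between them for Foxl2, Foxp2, Foxp1 and Foxo1. Intermediate cells held Foxp2 at 38.1 and 43.5 CPM in the oviduct and 2.32 and 2.26 CPM in the uterus. Foxl2 stood there at 113 and 131 CPM and at 36 and 34.2 CPM, so that in the uterus the intermediate cells were close to muscle. The classes are ranges of a marker score: 92 to 204 mesenchyme cells per library had 8 to 10 muscle marker UMIs per 10000, just under the limit, and 27 to 46 muscle cells had fewer than 50, just above the limit of 40.

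**Figure D4:**
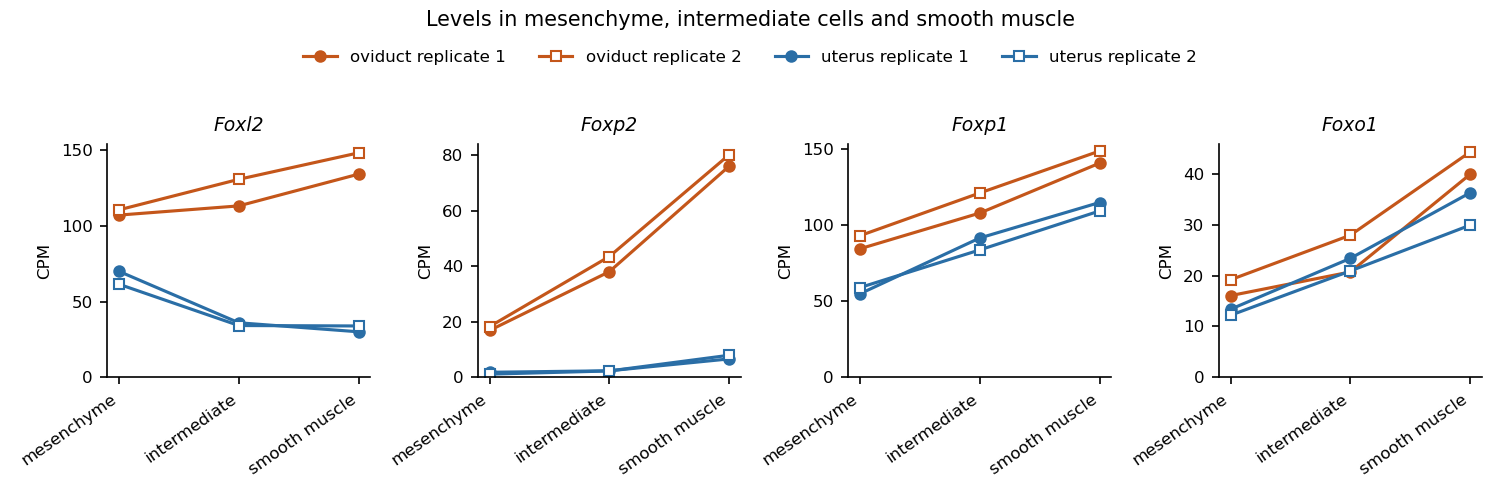
Levels (y axis, CPM from 0) of 4 genes in mesenchyme, intermediate and smooth muscle cells (x axis), 1 line per library. Oviduct lines of Foxl2 rise from 107 and 111 to 134 and 148 CPM while uterine lines fall from 69.9 and 61.4 to 30 and 33.9 CPM, and all lines of Foxp2, Foxp1 and Foxo1 rise.

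Within mesenchyme, Foxl2 and Foxp2 were uneven. The cells were clustered without the 9 genes, and levels are given per cluster as a description, with no test. Oviduct clusters led by Wnt16, Col18a1 and Wfdc1 held Foxl2 at 176 and 190 CPM, and those led by Pthlh, Nr4a2 and Nr4a3 at 142 and 155 CPM. Oviduct clusters led by Angptl7, Kdr and Rbp4 held 30.9 and 29.1 CPM and those led by the neurofilament genes Nefm and Nefl 16 and 20.2 CPM. Foxp2 was also lowest in the last 2, at 5.07 and 6.07 and at 5.14 and 5.93 CPM, against 40.8 and 50.8 CPM in the Pthlh cluster, whose cells carried more muscle marker UMIs (medians of 14.4 and 16.5 per 10000) than the Wnt16 cluster (2.49 and 2.21), which held Foxp2 at 34 and 36.5 CPM.

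In clusters of mostly uterine mesenchyme, Foxl2 stood at 80.9 and 75.6 CPM in the cluster led by Plac8, Hoxd11 and Srgn and at 26.3 and 16 CPM in that led by Pcdh10. Foxp2 did not exceed 3.38 CPM in any uterine library of these mesenchyme clusters and stood at 5.97 and 6.68 CPM in the muscle cluster. The highest oviduct cluster mean of Foxl2 was 183 CPM and the lowest 18.1 CPM, over 6 clusters, and in the uterus 78.3 and 21.1 CPM over 5 clusters. The latter leave out 50 cells of uterus replicate 1 and 43 of replicate 2 that fell in the Nefm cluster. Those of replicate 1 held Foxl2 at 1.49 CPM and Foxp2 at 0, and replicate 2 was under the limit of 50 cells. Also left out were uterine cells in clusters that were given no class. The largest of these clusters held 409 and 398 uterine cells, and 714 of its 899 cells were intermediate by the gate.

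**Figure D5:**
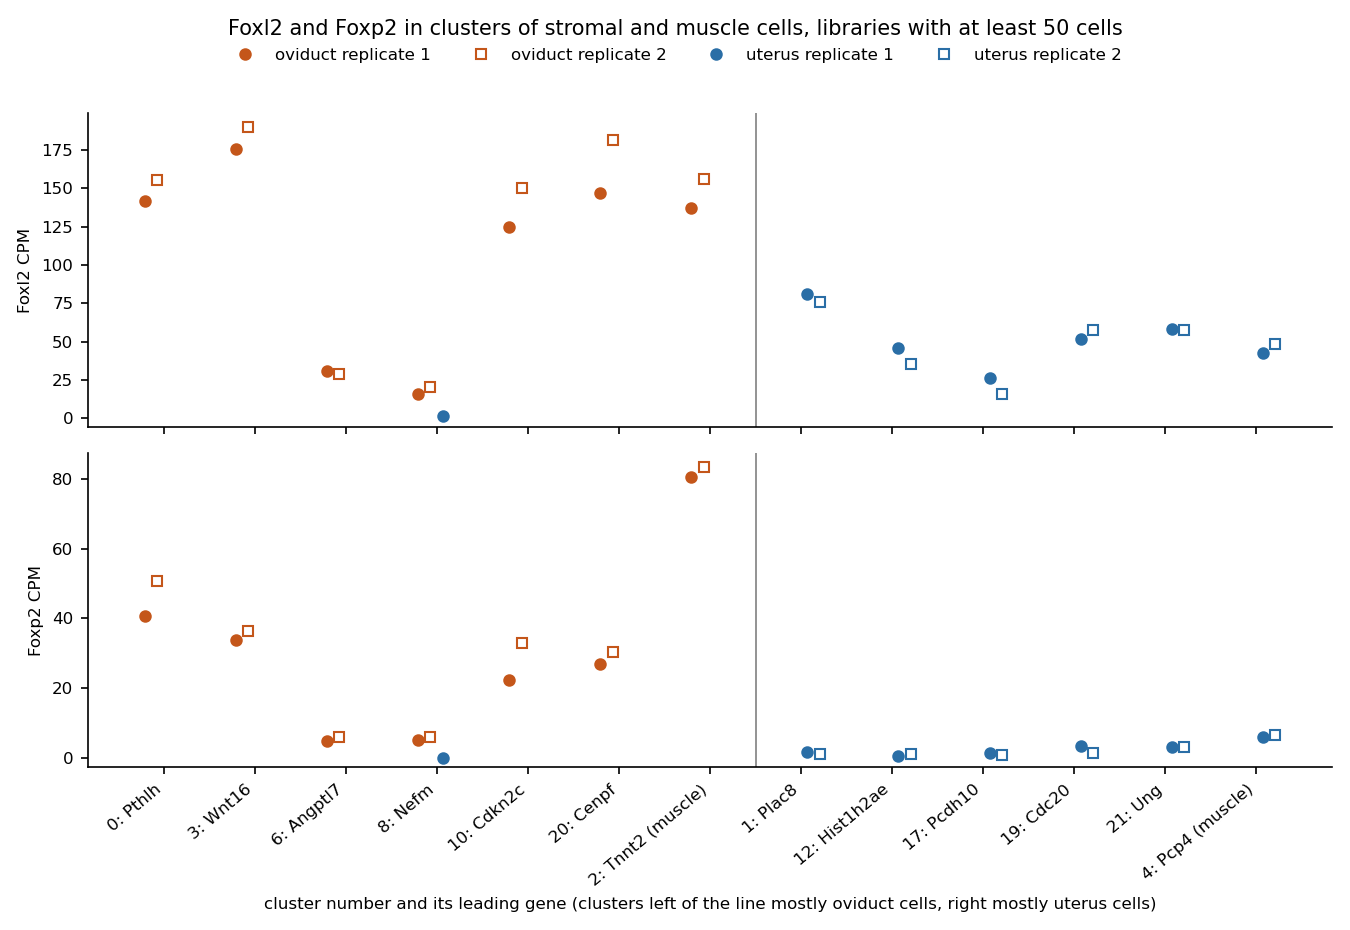
Foxl2 and Foxp2 levels (y axes, CPM) in 13 clusters of stromal and muscle cells (x axis, number and leading gene), 1 point per library with at least 50 cells. Oviduct libraries hold 30.9 CPM of Foxl2 or less in the Angptl7 and Nefm clusters and 125 CPM or more in the other clusters left of the line.

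Foxl2 outside mesenchyme and muscle was low. Myeloid cells had 8, 1, 0 and 6 UMIs in oviduct 1, oviduct 2, uterus 1 and uterus 2, of which free RNA could supply up to 98.1% in oviduct 2 and 4.96% in uterus 2. Pericytes held 13.9 and 18.4 CPM in the oviduct and 3.08 and 9.09 CPM in the uterus (1.28 ± 0.42, adjusted p = 0.11). That call was made with the replicate number as a block (1.36, adjusted p = 0.0309), with doublets kept (2.04, adjusted p = 0.001) and without a filter on low counts (adjusted p = 0.0177). Without uterus replicate 2 the difference was 2.31, fitted against the 3.08 CPM of uterus replicate 1. No p is given for it, since Foxl2 then passed the filter through the oviduct alone. Muscle markers, all 6 detected, stood at 1871 and 2345 CPM in oviduct and 1511 and 1483 CPM in uterine pericytes, and their part in the value was not tested. Mesothelium held 8.43 and 7.09 against 2.6 and 2.77 CPM (1.54 ± 0.42, adjusted p = 0.0483), with 4 UMIs in each uterine library, and the call was lost without any 1 of the 4 libraries (adjusted p = 0.071 to 0.227), with a stricter gate, with free RNA subtracted and with DESeq2. Markers of ovarian granulosa cells, in which Foxl2 is abundant, summed to 3.76 to 5.94 CPM in mesenchyme and muscle, and Fshr had 0 UMIs in both classes in all 4 libraries.

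Blood endothelium was the class of Foxf1, at 42 and 43.8 CPM in the oviduct and 34.9 and 38.2 CPM in the uterus, with no overlap between organs and a difference that did not pass the test (0.25 ± 0.16, adjusted p = 0.568). Next came pericytes at 4.63 and 5.38 and at 3.08 and 5.05 CPM. Mesenchyme held 20, 16, 5 and 4 UMIs in oviduct 1, oviduct 2, uterus 1 and uterus 2, and no p is given for the contrast with it, since Foxf1 passed the filter there through endothelium alone. A Foxf1 UMI was found in 43.1% to 53.5% of endothelial cells per library and in 14.3% to 16.9% at 5000 UMIs, against 0.0588% to 0.452% of mesenchyme cells at that depth. Oviduct epithelium held 3 and 5 UMIs, uterine epithelium 0, and myeloid cells 0 throughout.

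Foxc1 was highest in pericytes, then endothelium, in both organs. Pericytes held 22 and 26.1 CPM in the oviduct and 10.5 and 12.1 CPM in the uterus, with no overlap (1.03 ± 0.28, adjusted p = 0.0496). This call was lost with a stricter gate (adjusted p = 0.0756), with doublets kept (0.0722), with DESeq2 (0.634) and without oviduct replicate 2 (0.122) or uterus replicate 1 (0.137) or 2 (0.0718). Endothelium held 8.6 and 13.5 against 3.62 and 3.18 CPM, again without overlap (1.69 ± 0.33, adjusted p = 0.00254). Pericyte markers in the endothelial class, all 5 detected, stood at 32.3 and 7.05 CPM in the oviduct and 5.43 and 2.06 CPM in the uterus, and their part in that value was not tested.

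Foxc2 and Foxf2 stayed near the limit of detection. Foxc2 had 11, 6, 5 and 9 UMIs in the pericytes of oviduct 1, oviduct 2, uterus 1 and uterus 2 (6.36, 4.61, 3.08 and 4.54 CPM) and 11, 13, 11 and 16 in endothelium. The organs overlapped in endothelium (0.02 ± 0.46, adjusted p = 0.995). In pericytes the oviduct libraries lay above the uterine ones, with a ratio of summed levels of 1.44 and a 95% counting interval of 0.67 to 3.16. Foxf2 had 6, 10, 2 and 1 UMIs in pericytes and 0 to 2 in any other class and library. Its summed levels in pericytes gave an oviduct to uterus ratio of 6.34 with a 95% counting interval of 1.82 to 34, and it passed the filter in no class. Foxs1, another pericyte forkhead gene of the wider list, stood in pericytes at 90.2, 79.1, 76.4 and 82.8 CPM.

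Foxp2 ran the other way between organs in endothelium. It stood at 4.5 and 4.4 CPM in oviduct endothelium and at 14.5 and 10.7 CPM in uterine endothelium, without overlap (-1.44 ± 0.29, adjusted p = 0.00346). The call was lost with a stricter gate (-0.88, adjusted p = 0.15) and with clusters (-0.93, adjusted p = 0.119), under which oviduct replicate 1 stood at 7.89 and 7.8 CPM, and with DESeq2 (-1.46, adjusted p = 0.0878). The contrast with mesenchyme was added after the levels were seen. Endothelium was below mesenchyme in the oviduct (-2.04 ± 0.22, adjusted p = 3.3e-11) and above it in the uterus (2.94 ± 0.24, adjusted p = 9.81e-15). The interaction was -4.98 ± 0.32 (adjusted p = 1.43e-16), where 15.2% of 14340 genes were called, 7.61% negative and 7.55% positive, and it held its call in each alternative run (-5.15 to -4.42). In cells with fewer than 2 of 4 lymphatic markers Foxp2 stood at 3.98 and 5.33 CPM in the oviduct and 16 and 12 CPM in the uterus, a division made after the levels were seen. In the few cells with 2 or more (19, 17, 9 and 11 in oviduct 1, oviduct 2, uterus 1 and uterus 2) it stood at 5.84, 2.98, 5.32 and 4.93 CPM (8, 4, 3 and 5 UMIs), which overlap between organs. Of those markers Prox1 was at 5.12 and 10.6 CPM in oviduct and 1.81 and 2.62 CPM in uterine endothelium, and Mmrn1 at 1.64 and 3.52 against 1.29 and 0.749 CPM. Flt4 overlapped, at 43 and 46.4 against 55.1 and 45.3 CPM, and Ccl21a was at 0 in each. Their part in the Foxp2 value was not tested.

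Of the 9 genes 6 were tested between organs in endothelium, with Foxc1 higher and Foxp2 lower in the oviduct, where 3.69% of 11116 genes were called, 2.81% higher and 0.882% lower. In pericytes 4 were tested and 1 was higher in the oviduct, where 4.41% of 9910 genes were called, 2.99% higher and 1.42% lower. In mesothelium 6 were tested and 2 were higher in the oviduct, where 7.84% of 12762 genes were called, 4.47% higher and 3.36% lower. Against mesenchyme, 5 of 7 tested genes were higher in oviduct endothelium and 2 lower, where 64.5% of 14340 genes were called, 30.1% and 34.4% in those directions. In uterine endothelium 6 were higher and 1 lower, where 62.7% were called, 27.9% and 34.8% in those directions. Foxc2, like Foxf1, passed the filter in these contrasts through endothelium alone, with 3, 1, 1 and 2 UMIs in the mesenchyme of oviduct 1, oviduct 2, uterus 1 and uterus 2. Foxc1 is also among the 6, and its uterine mesenchyme, with 2 and 5 UMIs, was under the minimum of the filter.

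Foxp1 had its highest level in endothelium, at 211 and 258 CPM in the oviduct and 192 and 196 CPM in the uterus (0.30 ± 0.15, adjusted p = 0.412), followed in both organs by mesothelium and smooth muscle. In the oviduct, epithelium and mesenchyme overlapped next in order, as did pericytes and myeloid cells. In the uterus pericytes (64.7 and 51.5 CPM) and mesenchyme (54.9 and 59 CPM) overlapped at the bottom. Mesothelial Foxp1 stood at 173 and 163 against 119 and 115 CPM (0.52 ± 0.12, adjusted p = 0.0214), a call lost without uterus replicate 1 (adjusted p = 0.0748) or 2 (0.081).

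Foxo1 followed a like order. Endothelium held 84.1 and 116 against 84.3 and 87.6 CPM (0.23 ± 0.16, adjusted p = 0.618), overlapping mesothelium in the oviduct, where it stood at 96.3 and 91.7 CPM. Uterine mesothelium held 59.8 and 74.8 CPM (0.49 ± 0.14, adjusted p = 0.0667 and, with the replicate number as a block, 0.0484). Pericytes were low at 7.68 to 14.2 CPM. Endothelium exceeded mesenchyme by 2.41 ± 0.10 in the oviduct (adjusted p = 1.98e-25) and 2.57 ± 0.11 in the uterus (adjusted p = 2.09e-25). The oviduct excess of Foxo1 in epithelium was larger than that in mesenchyme by 0.69 ± 0.21 (adjusted p = 0.0226), the only one of 5 tested genes called in that interaction, in which 19.3% of 15145 genes were called, 12.2% positive and 7.07% negative, and the median was 0.12. This call was lost with a stricter gate (0.55, adjusted p = 0.0876), with DESeq2 (0.61, adjusted p = 0.301), and without oviduct replicate 1 (adjusted p = 0.139) or 2 (0.057) or uterus replicate 1 (0.35, adjusted p = 0.434).

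The genes whose levels ran most like each member over 28 class sums of the 4 libraries were named by Pearson's r of log2(CPM + 1), a description without a test since the sums share libraries and depth. For Foxa2 they were Ppp2r2c (r = 0.994), Sox3 (0.981) and Pifo (0.971), the last a gene of primary and motile cilia. Foxa2 stood at 0.294 CPM or less outside the oviduct epithelium, so these r values rest on the 2 sums of that class. For Foxl2 they were Tmem45a (0.913), St8sia2 (0.901) and Fez1 (0.9), and for Foxp2 Dkk2 (0.803), Anapc16 (0.797) and Fgf7 (0.782), of which Dkk2 encodes a Wnt antagonist and Fgf7 a growth factor of mesenchyme. Foxf1 ran with Ephb1 (0.961), Plvap (0.958), a protein of endothelial fenestrae, and Snrk (0.948). Foxc1 ran with Gnas (0.894), Plekhg2 (0.881) and Ankrd50 (0.878). For Foxp1 the genes were Pdk1 (0.88), Chmp2b (0.874) and Rflnb (0.865), and for Foxo1 Tdrp (0.899), Gdpd5 (0.888) and Egln3 (0.882). Foxf2 and Foxc2 stayed under the level of 10 CPM set for this step.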

How the data were processed

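Each library's deposited matrices held whole-number UMI counts per gene and barcode. They were made by the authors with Cell Ranger on mm10, per the submitters' processing notes, which also name Seurat 4.2.3. The file headers name Cell Ranger 6.0.1 for the filtered matrices and version 4 for the raw matrices, from which free RNA was estimated. The 9 genes and the gene lists were chosen with earlier results of these data known.

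Filtered barcodes needed at least 500 genes, with mitochondrial UMIs limited to 15%, and Scrublet doublets were removed at a rate of 0.8% per 1000 barcodes (scanpy 1.11.5). Cells were gated on class markers, with thresholds set after seeing marker distributions: at least 4 of 7 epithelial, 3 of 5 mesothelial, 4 of 5 pericyte, 5 of 7 endothelial or 4 of 8 myeloid markers and 5 marker UMIs per 10000, at least 5 of 6 muscle markers and 40 UMIs per 10000, or 3 mesenchyme markers and 5 mesenchyme UMIs with under 10 muscle UMIs. Cells that met more than 1 class, and stromal cells close to another class, were left out. Leiden clusters (leidenalg 0.10.2) were an alternative whose naming rule was revised once after the clusters were seen.

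Counts were summed per library and class and tested with edgeR 4.0.16 (quasi-likelihood, TMM, filterByExpr, R 4.3.3), organ by organ within a class or class by class with an interaction, and p-values were adjusted over all genes at 0.05. Organ tests used 4 sums, 2 per organ, and class contrasts the sums of 2 classes with library as a term. The contrasts of muscle and endothelium with mesenchyme were added after the levels were seen. Named genes were the 9 genes, up to 2 called genes per list and direction with the largest change, and the 3 genes of most like pattern. A floor of 3 counts stood for 0, and intervals are exact (95%), for counting error only. Alternatives were DESeq2 1.42.0, no low-count filter, a replicate block, each library left out, clusters, a stricter gate, doublets kept, a stricter cell filter (1000 genes, 10%), cells of at least 5000 UMIs and subtraction of free RNA estimated from barcodes of up to 100 UMIs. The edgeR script was tested on simulated counts, with changes planted in a small share of the genes, all above a minimum mean level. In organ tests 4-fold changes were recovered for 100% of the planted genes in mesenchyme and 89.4% in epithelium. For 2-fold changes the shares were 94.3% and 55.7%. In the interaction of epithelium and mesenchyme 82.4% of 4-fold and 47.7% of 2-fold changes were recovered. These shares do not cover scarcer genes or comparisons in which many genes change. In the simulated organ tests false calls made up 7.62% of all calls in mesenchyme, 6.54% in epithelium and 8.67% in smooth muscle, above the nominal rate. The oviduct and uterus replicates may share neonates, since the labels speak of the same neonates, without saying which number marks which pool.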

Additional observations from a re-analysis of the deposited data

Results flagged for a closer look

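Interaction tests (edgeR quasi-likelihood test, adjusted over all genes) called a different organ difference than in mesenchyme for 1 of 5 tested genes in epithelium, 2 of 6 in muscle and 2 of 7 in endothelium, beside 19.3%, 19.9% and 15.2% of all genes. Those in muscle and endothelium were added after the levels were seen. Foxl2 differed more between organs in smooth muscle than in mesenchyme (1.43 on the log2 scale). Foxp2 had fitted organ differences of opposite sign in endothelium and mesenchyme (interaction -4.98). The endothelial organ difference of Foxp2 stayed negative in the alternatives (-1.62 to -0.88) but lost its call with a stricter gate, with clusters and with DESeq2. Foxo1 differed more in epithelium than in mesenchyme (0.69), and Foxp1 less in muscle than in mesenchyme (-0.24, adjusted p = 0.0392). The fitted interaction of Foxc1 in endothelium was -1.97, given with no p, since it rests on 2 and 5 UMIs in uterine mesenchyme, under the minimum of the low-count filter. Of 12 alternatives, Foxo1 lost its call in 5, Foxp1 in 7 and Foxc1 in 7. The cause of these differences was not tested.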

How the results depend on the processing

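Of 1036 alternative values of the 9 genes, 937 kept their direction and side of the threshold, 47 lost and 22 gained a call, 30 changed direction, and 14 more could not be tested. None of the 30 passed the threshold before or after the change (listed last). The counts of genes called moved by more than 1.5 times as follows, and the cause was not tested. With DESeq2 the organ difference called 1486 genes in epithelium (2496 with edgeR), 1940 in muscle (3384), 175 in pericytes (437) and 169 in endothelium (410). DESeq2 called 2255 genes between oviduct muscle and mesenchyme (5270), 1894 in the uterus (3823) and 1043 in the interaction (2869). It called 5910 between oviduct endothelium and mesenchyme (9244), 5635 in the uterus (8991) and 688 in the interaction (2173), and 1496 in the interaction of epithelium and mesenchyme (2925). The stricter gate called 2167 in muscle and 213 in pericytes, and without the filter on low counts 1574 were called in mesothelium (1000) and 658 in pericytes.

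Leaving out 1 library at a time gave 1632 (without oviduct replicate 2) to 2549 genes in epithelium and 609 (without oviduct replicate 2) to 1106 in mesothelium. For uterine muscle against mesenchyme it gave 1932 (without uterus replicate 2, and 2041 without replicate 1) to 4379. The muscle interaction ranged from 1340 (without uterus replicate 1, and 1379 without replicate 2) to 3057. Where an organ was left with 1 library, that library was assumed to vary like the others.

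With the replicate number as a block, 2220 genes were called in epithelium, 7021 in mesenchyme, 3621 in muscle, 1185 in mesothelium, 564 in pericytes and 382 in endothelium. The block was run for the organ differences. Deviations of same-numbered libraries correlated at -0.0960 to 0.146 over the 6 classes, so the data do not show that the numbers pair the libraries. Among the 9 genes the block changed 2 calls, Foxl2 in pericytes and Foxo1 in mesothelium. Foxf2 and Foxc2 had few UMIs in every class, and the uterine epithelium held 31 and 28 cells.

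The 30 changes of direction are log2 differences, and their cause was not tested. With Leiden clusters the organ difference of Foxc2 in endothelium was -0.038, that of oviduct epithelium from mesenchyme -0.048 for Foxp1 and that of oviduct muscle from mesenchyme -0.83 for Foxf1. The interactions were then -0.57 for Foxf1 and 0.0049 for Foxo1 in muscle and -0.34 for Foxl2 in endothelium. The endothelial organ difference of Foxc2 was -0.13 with the stricter gate and -0.042 in cells of at least 5000 UMIs, and its interaction -3.41 and -0.013. Foxp1 in epithelium was -0.031 with the stricter cell filter, and the endothelial interaction of Foxl2 -0.17 with free RNA subtracted.

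Leaving out 1 library at a time, organ differences ranged from -0.23 to 0.28 for Foxp1 in epithelium, from -0.33 to 0.39 for Foxc2 in endothelium, and in mesothelium from -0.32 to 6.95 for Foxf1 and from -0.35 to 7.04 for Foxc1. In uterine mesothelium Foxf1 and Foxc1 each had 3 UMIs in all and 0 CPM in 1 library, so the fit left with that library was against 0 UMIs. Epithelium against mesenchyme ranged from -1.42 to 0.13 for Foxc1 and from -0.060 to 0.36 for Foxp1 in the oviduct, and from -4.98 to 3.42 for uterine Foxc1. The epithelial interaction ranged from -3.29 to 5.52 for Foxl2, from -3.93 to 4.46 for Foxc1 and from -4.14 to 1.38 for Foxp2, each highest without uterus replicate 1. Without that library the uterine epithelium held 0 UMIs of Foxl2, Foxc1 and Foxp2. The muscle interaction ranged from -0.65 to 0.30 for Foxp2 and from -0.14 to 0.00090 for Foxo1, and the endothelial one from -0.89 to 2.15 for Foxl2 and from -0.53 to 0.96 for Foxc2.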
